A study of Mus musculus with 2 samples.

Results

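The cells described here are a family of mouse T cells that share 1 T cell receptor beta chain (TRB). Members were the barcodes found in both the RNA and the TCR library that carried exactly 1 distinct productive TRB, with the CDR3 written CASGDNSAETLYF in the deposited contig table and the joining segment TRBJ2-3. There were 600 such cells, 15.4% of the 3884 cells with exactly 1 productive TRB and 5.78% of all 10387 RNA barcodes. 1 further barcode met the chain rule and was left out because 3138 of its 3738 UMIs (unique molecular identifiers, 1 for each captured RNA molecule) were haemoglobin transcripts. Apart from that exclusion, members were chosen by their receptor chains and not by expression.

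All cells came from GD2TIF cells, T cells of Cas9 transgenic mice that were activated and spin-infected with a retrovirus. The retrovirus targeted Bcor, a corepressor of a Polycomb complex, and Zc3h12a, which encodes the RNA-cleaving enzyme Regnase-1, and carried 14g2a, a chimeric antigen receptor against the ganglioside GD2. Each immunocompetent C57BL/6 mouse received 1000000 of these cells, and 2 months later spleen cells positive for CD8 and Thy1.1 were sorted and loaded on a microwell chip that captures messenger RNA on barcoded beads. There was 1 RNA library and 1 TCR library, the cells came from 1 kind of engineered cell and were not genotyped one by one, and there was no unedited or untreated group. The labels do not say how many mice the sorted spleen cells came from, so a family and the mouse it grew in cannot be told apart. The family is therefore set against the 11 other single-TRB families of 50 or more cells as values with counting intervals, and no test was run, because cells of 1 library are not replicates.

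Each T cell rearranges its own TRB and TRA (alpha chain) genes, and the join between V and J segments forms CDR3, the loop that makes most of the contact with peptide. Daughter cells inherit the join, so a shared CDR3 nucleotide sequence marks cells that are likely to descend from 1 precursor. Sca-1, the product of Ly6a, is a surface protein anchored by a lipid; it is known as a marker of blood stem cells and of activated and stem-like memory T cells, and interferons raise it. CXCR3 is a chemokine receptor for interferon-induced chemokines, integrin beta 7 pairs with alpha 4 to hold T cells on gut endothelium, and Tgtp2 is a GTPase that interferon gamma induces.

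The CDR3 of the family is shown first because it defines the members, with the nearest TRB among the other families and those of the 2 other families that recur below. Bases run 5′ to 3′ and come from the deposited contig table; the TRB locus is on chromosome 6. In the family's own sequences the capital marks the only base at which they differ, and in the other families capitals run from the first base that differs from the family.
TRBJ2-3 family, 599 cells: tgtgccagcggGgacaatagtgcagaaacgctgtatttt
TRBJ2-3 family, 1 cell: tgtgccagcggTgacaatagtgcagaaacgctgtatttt
TRBV12-2+TRBV13-2 TRBJ2-5 family, 92 cells: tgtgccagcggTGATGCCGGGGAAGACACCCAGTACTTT
TRBV15 TRBJ1-1 family, 884 cells: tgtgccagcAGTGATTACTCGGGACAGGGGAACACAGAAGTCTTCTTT
TRBV17 TRBJ1-1 family, 201 cells: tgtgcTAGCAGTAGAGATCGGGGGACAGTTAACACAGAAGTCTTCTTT
The 1 cell with its own sequence differed from the other 599 by G12T, counted from 1 at the 5′ end of the CDR3. The contig was annotated with both TRBV12-2 and TRBV13-2 in 560 members, with TRBV13-2 alone in 38 and with TRBV13-3 in 2. All 600 contigs had TRBJ2-3, and 583 had the constant gene TRBC2, with none named in the other 17.

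The RNA library, read without reference to the contigs, carried the same V genes. Of 223 UMIs on TRBV genes in members, 190 lay on Trbv12-2 or Trbv13-2 (85.2%, 95% interval 79.9 to 89.6), against 138 of 679 (20.3%, 17.4 to 23.6) in the cells of the other families. The latter include TRBV12-2+TRBV13-2 TRBJ2-5 (92 cells) and TRBV12-2 TRBJ1-1 (60 cells), whose own contigs name these V genes. Intervals here and below are exact 95% intervals and cover counting error only. Trbc2 stood at 4589 CPM (UMIs of the gene per 1000000 UMIs of the summed cells) in the family and at 3061 CPM in the cells of the other families together, and Trbc1 at 661 and 5120 CPM. Trbc1 and Trbc2 are near-identical copies, so their split is uncertain in every family. Trbc1 took 12.6% of the TRBC UMIs in the family, above the 7.35% to 10.4% in the other families whose contigs name TRBC2. The cause of this difference was not tested, and Trbc1 levels by the TRA carried are given below.

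The alpha chains of the family were mixed, and the sequences are shown because the cells are split by them below. The most frequent TRA among members with 1 TRA, called the home TRA here, used TRAV16D-DV11 and TRAJ57; each other family has a home TRA of its own. The TRA locus is on chromosome 14, and no base is in capitals because the chains are not aligned with each other.
Home TRA of the TRBJ2-3 family, 408 members: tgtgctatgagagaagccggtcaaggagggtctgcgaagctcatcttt
Home TRA of the TRBV29 TRBJ1-1 family, 87 members: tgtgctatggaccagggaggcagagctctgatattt
Home TRA of the TRBV15 TRBJ1-1 family, 70 members: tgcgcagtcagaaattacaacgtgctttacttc
Home TRA of the TRBV17 TRBJ1-1 family, 62 members: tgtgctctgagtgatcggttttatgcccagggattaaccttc
The home TRA was found in 408 of 600 members (68%): alone in 299 and with another TRA in 109. A TRA was not detected in 23 members, and 169 (28.2%) had only other TRA chains. Of all members, 251 (41.8%) carried the home TRA of another family, a share that ran from 5.38% to 41.7% in the 11 other families. The deposited clonotype table, which uses both chains, split the family over 24 clonotypes. A second TRB was present in 35 of the 636 barcodes with this TRB (5.50%), and in 19 of the 35 it was that of the TRBV15 TRBJ1-1 family; these barcodes are not members. The part of this chain mixing in the values below was not tested, but values for members with the home TRA alone are given beside the results it moves.

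Members were among the deeper cells of the library. Their median was 2527 UMIs and 1202 genes, against family medians of 1732.5 to 2622 UMIs in the 11 other families and 1916 UMIs over all RNA barcodes. Mitochondrial genes took a median of 3.16% of UMIs. The summed family held 1629834 UMIs, so 1 UMI is worth under 1 CPM, while the smallest other family held 91810. Contigs of the TRB were supported by a median of 23 UMIs in members and 11 to 20.5 in the other families.

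The markers of the sorted cell type were present. Cd8a stood at 253 CPM and Cd8b1 at 476 CPM, within the other families' ranges of 98.0 to 529 and 216 to 987 CPM, and Cd4, Foxp3 and Il2ra had 0 UMIs. Cd3e, a chain of the CD3 complex, was at 1194 CPM, below the 1329 to 1746 CPM of every other family. Of 12 B cell markers 4 had 0 UMIs (Cd79a, Pax5 and Fcer2a among them), Ms4a1 had 1, and the list summed to 793 CPM against 179 to 859 CPM (median 674) in the other families. Ighm, the mu heavy chain of B cells, made most of that sum at 612 CPM, above all other families (103 to 501 CPM, median 390), while the light chain gene Igkc stood at 29.5 CPM against 8.99 to 265 CPM. The part of Ighm in any result was not tested. Transcript levels of the edited genes do not check an edit; Bcor was at 191 CPM against 103 to 225 CPM, and Zc3h12a at 41.7 CPM against 19.2 to 112 CPM.

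The family was named Sca-1 high with earlier results of these data known, so its Ly6a level describes the name and does not test it. The name fits the summed level and not every cell. Ly6a (chr15:74994877-74998031, GRCm38.p6) stood at 424 CPM (393 to 457; 691 UMIs), the highest of the 12 families. In the others it was 326 CPM in TRBV17 TRBJ1-1, 130 CPM in TRBV17 TRBJ2-7, 126 CPM in TRBV12-2 TRBJ1-1 and at most 65.5 CPM in the remaining 8, down to 8.96 CPM in TRBV12-1 TRBJ2-4. The ratio was 1.30 over the TRBV17 TRBJ1-1 family (1.10 to 1.55) and 3.26 or more over each of the other 10. Ly6a therefore did not meet the call used here, a CPM at least 1.5-fold above (or below) every other family with every interval clear of 1. With every family limited to its home TRA alone, an alternative chosen after seeing the data, the smallest ratio was 1.55 and the call was met. That was the highest of 15 alternatives. The lowest was 1.06, after thinning to 1000 UMIs a cell, and the mean of per-cell CPM gave 1.11. Among members 48.8% had a Ly6a UMI, against 2.00% in the TRBV13-3 TRBJ2-7 family (median 1732.5 UMIs a cell) and 40.3% in TRBV17 TRBJ1-1.

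Against all 11 families, 6 of the 6806 genes tested were called higher (0.0882%) and 1 was called lower (0.0147%). Genes tested had at least 100 UMIs over the 12 families, and TCR segment and haemoglobin genes were left out. The 6 were Gpm6b, Hspa1a, Rcn3, Hspa1b, Itgb7 and Tsc22d3, and the 1 was Cd72. The same rule gave 1 to 12 higher and 0 to 12 lower genes when each other family was taken in turn, so the number itself does not set this family apart. Limited to members with the home TRA alone, 8 genes were higher, 5 of them among these 6. Rcn3 was the 1 lost, although its smallest ratio was 2.73, against 2.17 with all members, so the ratio was not the reason. With these fewer members 6423 genes reached the minimum of 100 UMIs. With all members Rcn3 had 92 UMIs in the family and at most 13 in any other family. Whether it still reached the minimum is not given. With every family limited to its own home TRA alone 5085 genes were tested and 4 were higher, of which Hspa1a and Itgb7 were among the 6. There Rcn3 had a smallest ratio of 2.98 and Gpm6b of 2.83, and neither was called. The count of higher genes was 11 with TMM scaling, 17 against families of 100 or more cells and 1, Hspa1b, once families of 30 or more cells were included.

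Gpm6b (chrX:166238943-166389033), which encodes a membrane glycoprotein of the proteolipid family known from neurons and glia, had the largest ratio to the next family. It stood at 104 CPM (89.2 to 121; 170 UMIs) in the family and at 0 to 36.0 CPM in the others, with a median of 6.61 CPM. The nearest was TRBV14 TRBJ1-4 on 8 UMIs, which gives a ratio of 2.90 (1.44 to 6.83). With families of 30 or more cells included a smaller family was close to it, at a ratio of 1.04, and the call was lost. Members with the home TRA alone had 93.6 CPM and those with only other TRA chains 109 CPM, and none of the 11 other families reached either value. Rcn3 (chr7:45082914-45092322), a calcium-binding protein of the endoplasmic reticulum, had 56.4 CPM (45.5 to 69.2; 92 UMIs) against 0 to 26.0 CPM (median 3.60), a ratio of 2.17 (1.21 to 4.24) over TRBV17 TRBJ1-1. After thinning to 1000 UMIs a cell its smallest ratio was 1.25 and it was not called. Both genes rest on few UMIs in the smaller families.

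**Figure D1:**
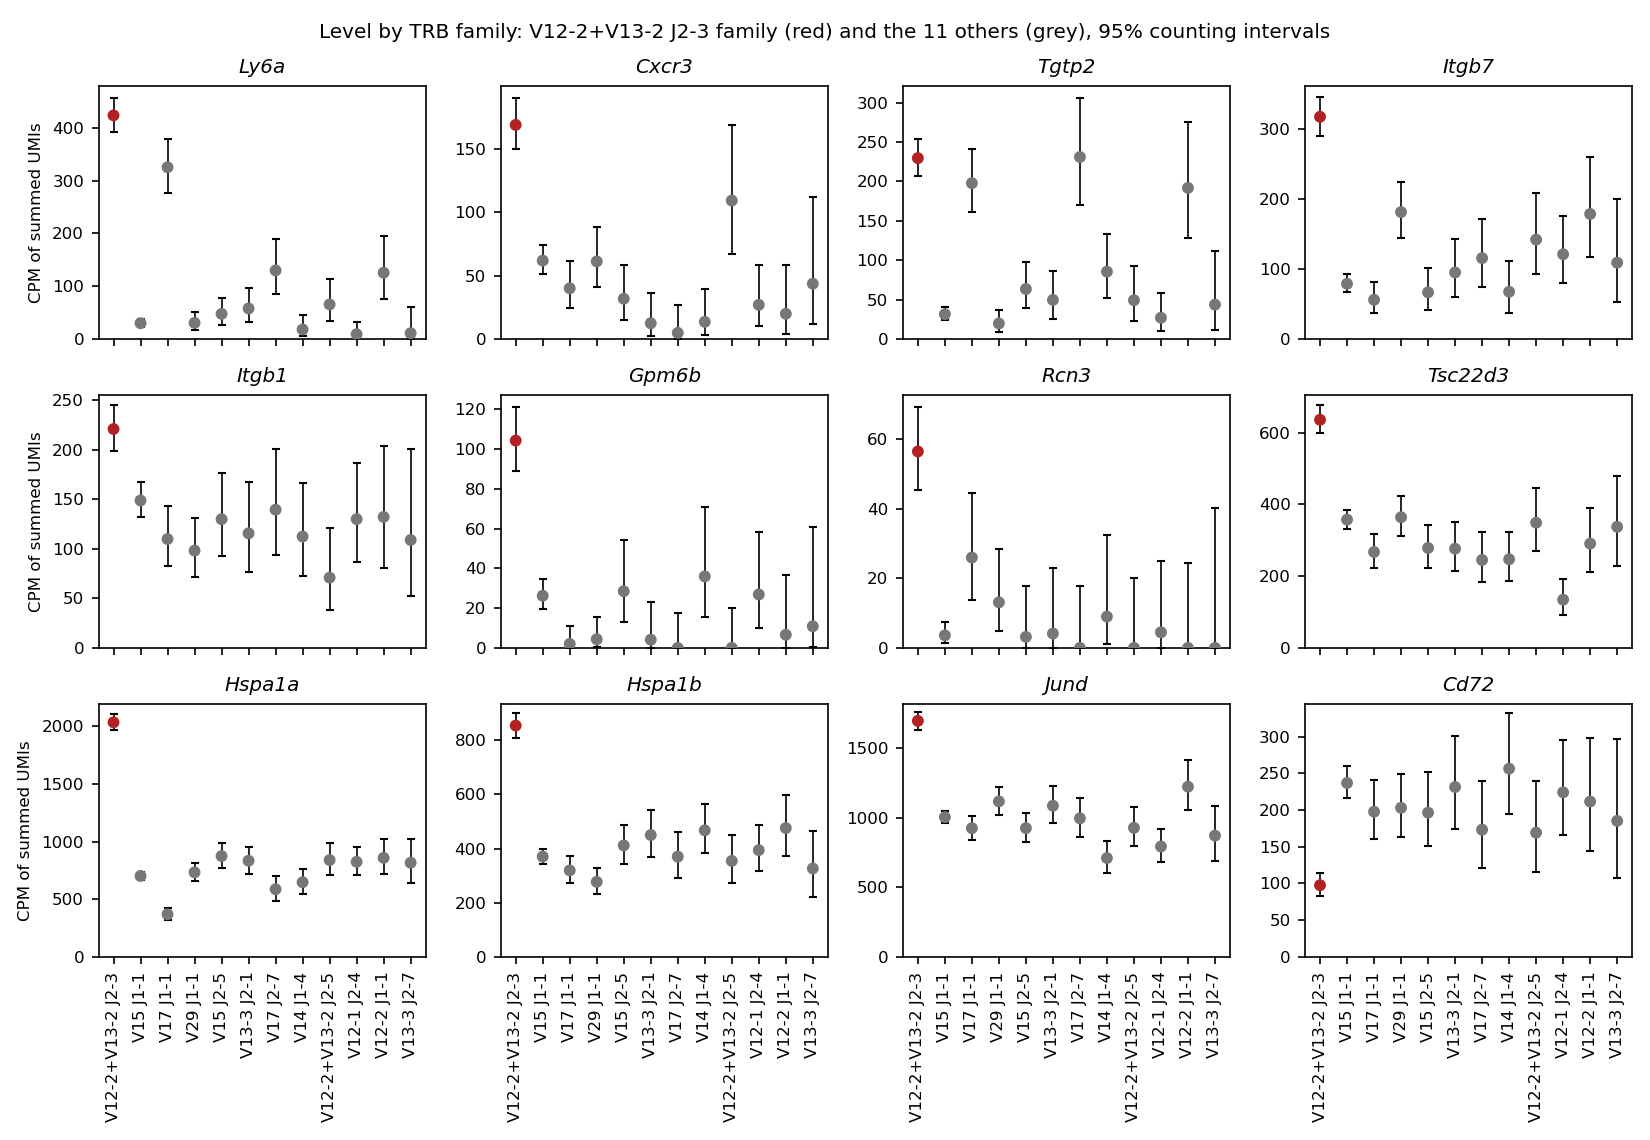
Each panel shows 1 gene, with its summed level in CPM in the TRBJ2-3 family (V12-2+V13-2 J2-3 on the axis) in red on the left and in the 11 other families in grey, with 95% counting intervals. The family is the highest point for Ly6a at 424 CPM, just above TRBV17 TRBJ1-1 at 326 CPM, and the lowest for Cd72 at 97.6 CPM.

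Itgb7 was the only adhesion or homing gene called. Itgb7 (chr15:102215994-102233405), integrin beta 7, stood at 317 CPM (290 to 346; 517 UMIs) in the family. Its level in the others was 181 CPM in TRBV29 TRBJ1-1, 178 CPM in TRBV12-2 TRBJ1-1, 142 CPM in TRBV12-2+TRBV13-2 TRBJ2-5 and 55.9 to 121 CPM in the rest, so the ratio to the next family was 1.75 (1.39 to 2.24). With families of 30 cells and more included, a smaller family exceeded it (ratio 0.847). Itga4, the alpha 4 integrin that pairs with beta 7 and with beta 1, was also highest of the 12, at 591 CPM against 297 to 523 CPM. Itgb1, integrin beta 1, fell just outside the call at 221 CPM against 70.9 to 149 CPM, a ratio of 1.48 (1.27 to 1.74).

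Cxcr3 (chrX:101731535-101734147) stood at 169 CPM (149 to 190) in the family and at 4.81 to 109 CPM in the others (median 31.7). The next family was TRBV12-2+TRBV13-2 TRBJ2-5 on 20 UMIs, at a ratio of 1.55 (0.98 to 2.57), and the interval lay above 1 against the other 10 families. With every family limited to its home TRA alone the smallest ratio was 2.84. Lists of genes are described by the median of a gene's 11 ratios, which reached 1.5 in 6.3% of all genes tested and was at most 1/1.5 in 7.05% (429 and 480 genes, against 610 and 341 with TMM scaling). Of 19 tested genes for chemokine receptors and homing 8 reached 1.5 and 1 was at most 1/1.5, and 6 were highest of the 12 families, where 3.47% of all genes were. Among the 8 were Cxcr4, the receptor of CXCL12, at 163 CPM against 49.3 to 153, S1pr1, which takes lymphocytes out of lymphoid tissue, at 254 CPM against 58.4 to 244, and Cxcr5 at 179 CPM against 48.1 to 207. The 1 in the other direction was Cxcr6, a receptor of tissue-resident cells, at 6.14 CPM against 0 to 146 (median 15.8).

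Interferon-inducible genes were mostly above the median family, with TRBV17 TRBJ1-1 or TRBV17 TRBJ2-7 often higher still. Of 14 tested interferon-inducible GTPases, which act against intracellular pathogens, 11 reached a median ratio of 1.5 and none was at most 1/1.5; the median over the list was 2.28, against 1.01 over all genes tested. The list summed to 1667 CPM in the family and to 611 to 2229 CPM in the others (median 695). Tgtp2 (chr11:49057196-49064212) had 229 CPM (207 to 254) against 19.6 to 231 CPM (median 49.6); the TRBV17 TRBJ2-7 family was level with it at a ratio of 0.994, and the interval lay above 1 in 8 of 11 families. Tgtp1 and Tgtp2 are near-identical copies, so their split is uncertain; Tgtp1 had 52.2 CPM against 0 to 86.6. Iigp1 stood at 86.5 CPM against 3.17 to 200 CPM, and Igtp at 167 CPM against 32.7 to 395 CPM. Irgm1 was highest of the 12, at 199 CPM against 43.6 to 182 CPM.

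The promoter of Tgtp2 is shown because it holds both interferon-associated motifs searched for. It is the RefSeq window from 250 bases before to 50 after the start of the gene, chr11:49064163-49064462 on the minus strand of GRCm38.p6. The first run of capitals is a match to TTCNNNGAA, a motif of genes induced by interferon gamma, and the second is GAAA, any 2 bases and GAAA again, a motif of interferon-stimulated genes.
Tgtp2 promoter: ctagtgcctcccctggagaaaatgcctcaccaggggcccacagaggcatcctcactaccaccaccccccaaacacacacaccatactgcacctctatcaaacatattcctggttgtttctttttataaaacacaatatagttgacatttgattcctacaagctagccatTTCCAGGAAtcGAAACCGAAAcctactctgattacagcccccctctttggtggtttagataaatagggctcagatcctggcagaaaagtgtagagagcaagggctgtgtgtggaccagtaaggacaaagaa
The matches begin 81 and 70 bases before the start. On either strand TTCNNNGAA occurs in 8.30% of 32851 promoters of this length, and the other motif in 3.44%. Of the 17 listed GTPases 10 had a promoter entry, and 9 of these held the paired GAAA motif and 6 TTCNNNGAA. A match describes letters only and is no sign of binding.

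The remaining interferon lists went the same way, with smaller medians over the list: 1.69 for the type I response and 1.39 for interferon gamma signalling. Of 18 tested genes of the type I interferon response 11 reached a median ratio of 1.5 and none was at most 1/1.5, and 8 were highest of the 12 families. The whole type I list summed to 2729 CPM in the family, above the 980 to 2057 CPM of every other family. Interferon gamma signalling summed to 2239 CPM against 1602 to 2890 CPM. Slfn1, a Schlafen protein linked to T cell growth control, had 117 CPM against 27.0 to 71.9 CPM, a ratio of 1.62 (1.13 to 2.38) over the next family; 1 ratio's interval did not exclude 1, so it was not called. Slfn2 had 580 CPM against 163 to 464 CPM, and Ifi27l2a 341 CPM against 75.9 to 310 CPM. Ifi206, a member of the PYHIN family of DNA sensors, stood at 160 CPM against 35.9 to 108 CPM. Of 13 genes of interferon gamma signalling 5 reached 1.5 and 1, the kinase Jak2 at 44.2 CPM against 46.3 CPM or more, was at most 1/1.5. Serpina3g, a protease inhibitor of activated T cells, stood at 115 CPM against 5.46 to 232 CPM (median 13.5). Serpina3g and Serpina3f are close copies and their split is uncertain.

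Genes of MHC class I presentation differed less. Of 20 tested only Tapbpl and Psmb10 reached 1.5, and the median over the list was 1.25. H2-D1, a classical class I heavy chain, was highest of the 12 at 6148 CPM, against 3561 to 5732 CPM. The Ly6 list had 4 tested genes, and all 4 reached 1.5: Ly6a, Ly6e at 1011 CPM against 398 to 855, Ly6k at 24.5 CPM against 0 to 182, and Ly6c2 at 60.7 CPM against 0 to 310 CPM. The count was 2 of 4 after thinning to 1000 UMIs a cell, and 2 of 4 with every family limited to its home TRA alone. Ly6c2 marks effector and memory CD8 T cells; it was higher in TRBV17 TRBJ1-1, and Ly6c1, its near-identical copy, had 0 UMIs, so the reads cannot be assigned between them with certainty.

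**Figure D2:**
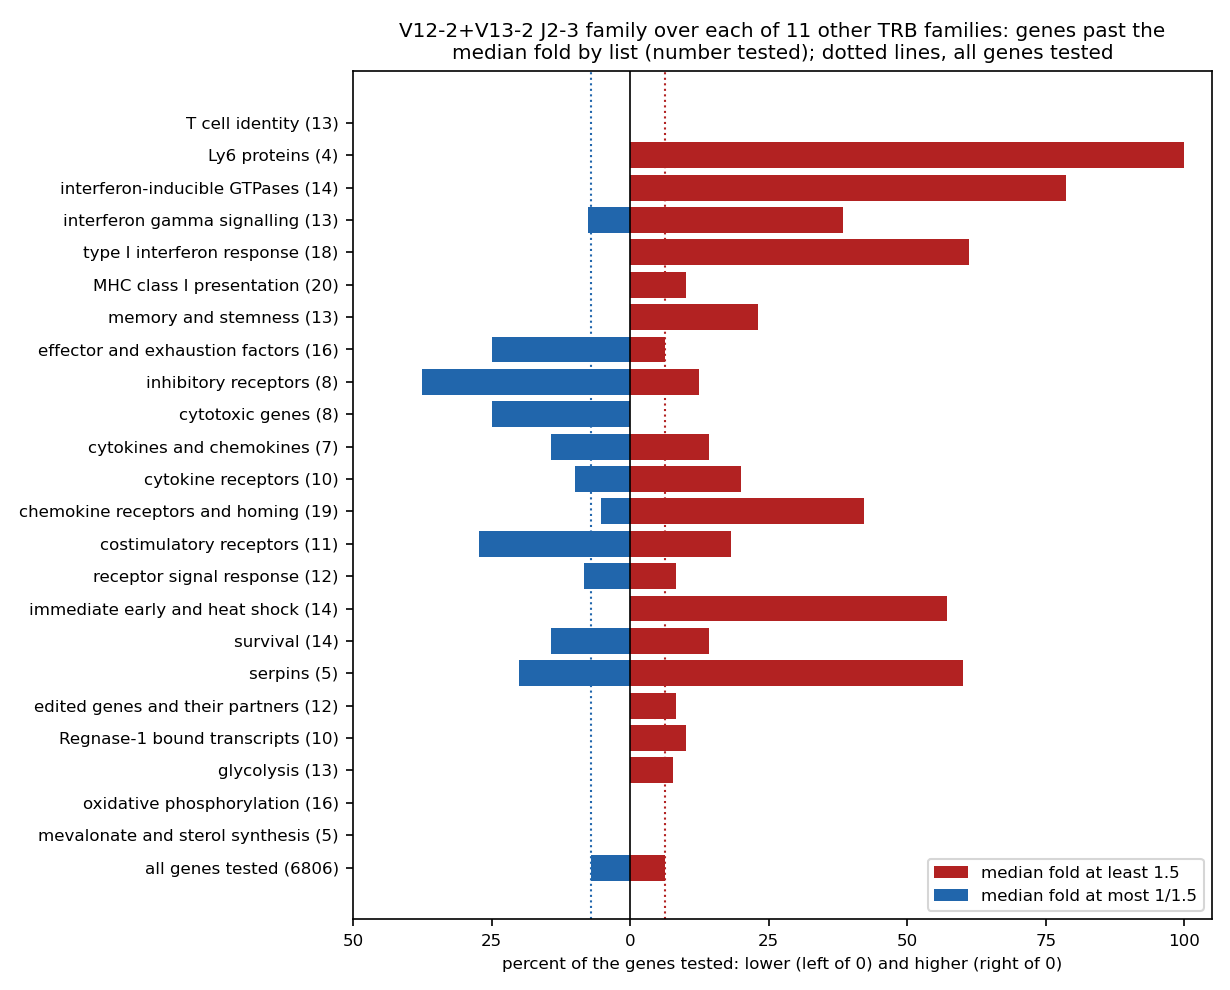
For each gene list (number of genes tested in brackets) the bars give the percent of genes whose median ratio over the 11 other families was at least 1.5 or at most 1/1.5. Dotted lines mark the same percents over all genes tested, 6.3% and 7.05%; interferon-inducible GTPases reach 11 of 14, and inhibitory receptors have 3 of 8 in the lower direction.

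Among heat shock and immediate early genes only the near-identical Hspa1a and Hspa1b were called, and no immediate early gene was. Hspa1a (chr17:34969359-34972156), the inducible chaperone HSP70, had 2035 CPM (1967 to 2106) in the family and 369 to 874 CPM (median 817) in the others, a ratio of 2.33 (2.06 to 2.64) over TRBV15 TRBJ2-5. With families of 30 or more cells included the smallest ratio was 1.38 and it was no longer called. Its neighbour Hspa1b (chr17:34956429-34959238) had 855 CPM (810 to 901) against 277 to 476 CPM, a ratio of 1.80 (1.42 to 2.31). The proteins are near-identical and the split between the genes is uncertain. Of the 14 genes of this list 8 reached a median ratio of 1.5, none was at most 1/1.5, and 7 were highest of the 12 families. The AP-1 subunit Jund fell just outside the call at 1696 CPM against 710 to 1223 CPM (ratio 1.39, 1.19 to 1.62). Jun had 914 CPM against 284 to 991, Fos 627 CPM against 218 to 698, and the phosphatase gene Dusp1 847 CPM against 269 to 842. Constitutive chaperones were closer to the other families: Hspa8 had 2182 CPM against 1796 to 2178 CPM, and Hsp90ab1 2124 CPM against 1679 to 2354 CPM.

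The Hspa1a promoter is shown because it belongs to the called gene with most UMIs and the Hspa1b promoter differs from it at only 4 of 300 bases (98.7% identity). Most of the window lies before the transcript, so this identity does not bear on how reads were split between the copies. The window is chr17:34972107-34972406 on the minus strand (RefSeq, GRCm38.p6), and the capitals mark a match to GAANNTTC, the core of a heat shock element, 104 bases before the start.
Hspa1a promoter: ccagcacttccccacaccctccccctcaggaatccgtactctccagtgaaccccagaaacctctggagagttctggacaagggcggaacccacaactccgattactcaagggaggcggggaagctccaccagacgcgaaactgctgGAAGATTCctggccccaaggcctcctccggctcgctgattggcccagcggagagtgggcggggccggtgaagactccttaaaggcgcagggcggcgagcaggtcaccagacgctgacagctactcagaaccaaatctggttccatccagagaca
The same match is present in the Hspa1b window. On either strand GAANNTTC occurs in 7.86% of promoters, and 4 of the 11 list members with a promoter entry held it.

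Tsc22d3 (chrX:140539528-140600522), the glucocorticoid-induced leucine zipper GILZ, stood at 636 CPM (598 to 676; 1037 UMIs) against 134 to 364 CPM (median 279). The next family was TRBV29 TRBJ1-1, at a ratio of 1.75 (1.48 to 2.07). With every family limited to its home TRA alone the smallest ratio was 1.166, and it was no longer called. Zbtb32, a zinc finger repressor of lymphocyte activation, was just outside the call at 256 CPM against 53.8 to 186 CPM (ratio 1.38, 1.01 to 1.92).

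In the other direction Cd72 (chr4:43447724-43455102), a C-type lectin known as an inhibitory coreceptor of B cells, stood at 97.6 CPM (83.0 to 114) against 169 to 256 CPM (median 203). All 11 other families were above it. The call was lost under several settings, which are listed with the processing. Nearest outside in this direction was Gm42418, a gene model over ribosomal RNA, at 25103 CPM against 27238 to 36685 CPM.

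Memory and exhaustion genes showed a mixed picture. Klf2, a transcription factor that keeps T cells recirculating, was highest of the 12 at 3722 CPM against 1794 to 2957 CPM, and Il7r, the interleukin 7 receptor, had 88.4 CPM against 14.0 to 165 CPM (median 43.6). Tcf7, the factor of stem-like T cells, was near the middle at 688 CPM against 374 to 973 CPM (median 654). Of 13 memory genes 3 reached 1.5 (Klf2, Il7r and Bcl6) and none was at most 1/1.5. Of 16 effector and exhaustion factors 1 reached 1.5, Tbx21, which encodes T-bet, at 126 CPM against 53.7 to 125 CPM, and 4 were at most 1/1.5. The 4 were Prdm1, Nr4a2, Maf and Ikzf2; Maf had 14.1 CPM against 0 to 183 CPM (median 43.6) and Ikzf2, encoding Helios, 133 CPM against 128 to 340 CPM. Tox, a factor of exhausted cells, had 605 CPM against 555 to 764 CPM.

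Of 8 tested inhibitory receptors 3 were at most 1/1.5 and 1 reached 1.5. Lag3 had 95.1 CPM against 87.1 to 353 CPM (median 240), Pdcd1, encoding PD-1, 199 CPM against 58.3 to 622 CPM (median 311), and Tigit 49.7 CPM against 43.6 to 128 CPM. The 1 that reached 1.5 was Ctla4, at 109 CPM against 19.8 to 266 CPM, with TRBV15 TRBJ1-1 highest. Havcr2 had 1 UMI in 600 cells. Ccl5, a chemokine of effector cells, stood at 241 CPM against 186 to 3281 CPM (median 523), while Xcl1, a chemokine for cross-presenting dendritic cells, had 215 CPM against 62.5 to 260 CPM (median 94.1). Gzmk had 282 CPM against 53.9 to 977 CPM, Prf1 218 CPM against 112 to 343 CPM, and Gzmb 3.68 CPM against 0 to 131 CPM. Of 8 cytotoxic genes none reached 1.5 and 2, Cst7 and Tnfsf10, were at most 1/1.5.

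Of the remaining lists, serpins and costimulatory receptors had the larger shares of genes past a bound. None of 13 T cell identity genes, 16 of oxidative phosphorylation or 5 tested of sterol synthesis passed, and 1 each of the glycolysis genes (Slc2a1, 13 tested), the partners of the edited genes (Ring1, 12 tested) and the Regnase-1 bound transcripts (Ctla4, 10 tested). Of 5 tested serpins 3 (Serpina3f, Serpina3g and Serpinb9) reached 1.5 and Serpine2 was at most 1/1.5, and of 12 genes of the receptor signal response Cd69 reached 1.5 and Nr4a2 was at most 1/1.5. Of 7 cytokines and chemokines Xcl1 reached 1.5 and Ccl5 was at most 1/1.5. Among 10 cytokine receptors Il6ra and Il7r reached 1.5 and Il6st was at most 1/1.5. Among 11 costimulatory receptors Cd28 and Cd7 reached 1.5, and Cd226, Tnfrsf9 and Tnfrsf1b were at most 1/1.5. Of 14 survival genes Bcl2l11 and Bbc3, which promote cell death, reached 1.5. Among those at most 1/1.5 was the death inhibitor Bcl2, at 214 CPM against 246 to 463 CPM. Beyond the lists, the largest median ratios belonged to Gpm6b (7.23), 1700097N02Rik (6.74), the chemokine receptor gene Xcr1 (5.85), Rcn3 (4.31) and Dnah8 (4.31), and the smallest to Crisp3 (0.0968) and Flt1 (0.127), while the listed Serpine2 was at 0.0929; these were chosen after their values were seen.

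Against single families many more genes passed. The pairwise rule (1.5-fold and an interval clear of 1) gave 416 higher (6.11%) and 717 lower (10.5%) genes against TRBV15 TRBJ1-1, the other family with the most UMIs in total. Against TRBV17 TRBJ1-1 it gave 480 higher (7.05%) and 461 lower (6.77%), and against TRBV29 TRBJ1-1 401 higher (5.89%) and 530 lower (7.79%). Against TRBV15 TRBJ2-5 there were 424 higher (6.23%) and 329 lower (4.83%), and against TRBV13-3 TRBJ2-1 291 higher (4.28%) and 466 lower (6.85%). TRBV17 TRBJ2-7 gave 267 higher (3.92%) and 487 lower (7.16%), and TRBV14 TRBJ1-4 gave 461 higher (6.77%) and 427 lower (6.27%). TRBV12-2+TRBV13-2 TRBJ2-5, whose CDR3 is nearest in sequence, gave 339 higher (4.98%) and 383 lower (5.63%). TRBV12-1 TRBJ2-4 gave 443 higher (6.51%) and 484 lower (7.11%), and TRBV12-2 TRBJ1-1 gave 343 higher (5.04%) and 324 lower (4.76%). The fewest came against TRBV13-3 TRBJ2-7, which has the fewest UMIs, with 187 higher (2.75%) and 283 lower (4.16%). All 11 pairs share the same 600 cells, and the counts also depend on how many UMIs the other family has.

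Inside the family, the TRA that a member carried went with part of the levels. Ly6a stood at 486 CPM (440 to 536) in the 299 members with the home TRA alone, at 369 CPM in the 109 with the home TRA and another, and at 353 CPM (298 to 416) in the 169 with only other TRA chains, against 72.5 CPM in the cells of the other families together. Each of these groups was above the other families' total. Against the TRBV17 TRBJ1-1 family (326 CPM, 277 to 380) only the interval of the members with the home TRA alone lay clearly higher. The interval of those with only other TRA chains overlapped it, and the 369 CPM lay inside it. Hspa1a went the same way, with 2326 CPM (home TRA alone), 1649 CPM (home TRA and another) and 1829 CPM (other TRA only), against 699 CPM. Itgb7 was 314, 375 and 274 CPM in the same order, against 96.3 CPM, with overlapping intervals for the first and the third group.

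Members whose only TRA was that of TRBV15 TRBJ1-1 numbered 27 and had Ly6a at 301 CPM (181 to 470), Itgb7 at 190 CPM and Mvd, a sterol synthesis gene, at 79.2 CPM (25.7 to 185). Cells of the TRBV15 TRBJ1-1 family with that TRA alone, 517 in number, had Ly6a at 14.1 CPM, Itgb7 at 51.1 CPM and Mvd at 393 CPM, and members with the home TRA alone had Mvd at 10.8 CPM. These 27 cells thus lay between the groups for Mvd and nearer the family for Ly6a. The 33 members with only the TRA of TRBV17 TRBJ1-1 had Ly6c2 at 266 CPM (165 to 406), beside 261 CPM in 147 cells of the TRBV17 TRBJ1-1 family with that TRA alone and 38.4 CPM (26.3 to 54.2) in members with the home TRA alone. Trbc1 stood at 1418 CPM in these 33 cells, against 6370 CPM in the 147 and 541 CPM in members with the home TRA alone. Leaving out all cells that carry the home TRA of another family left 349 members and 5 higher genes, 4 of them among the 6; Itgb7 (smallest ratio 1.33) and Rcn3 (2.71) were not called and Cxcr3 (2.33) was.

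The rule left out 2 groups of cells that share a chain with the family. The 24 cells with the home TRA and no productive TRB had Ly6a at 376 CPM (227 to 588), Itgb7 at 258 CPM and Hspa1a at 1803 CPM. The 35 barcodes with this TRB and a second one had Ly6a at 390 CPM (279 to 531) and Trbc1 at 3061 CPM. Both were above the 72.5 CPM of the other families together for Ly6a, but their intervals overlapped that of the TRBV17 TRBJ1-1 family (326 CPM, 277 to 380).

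**Figure D3:**
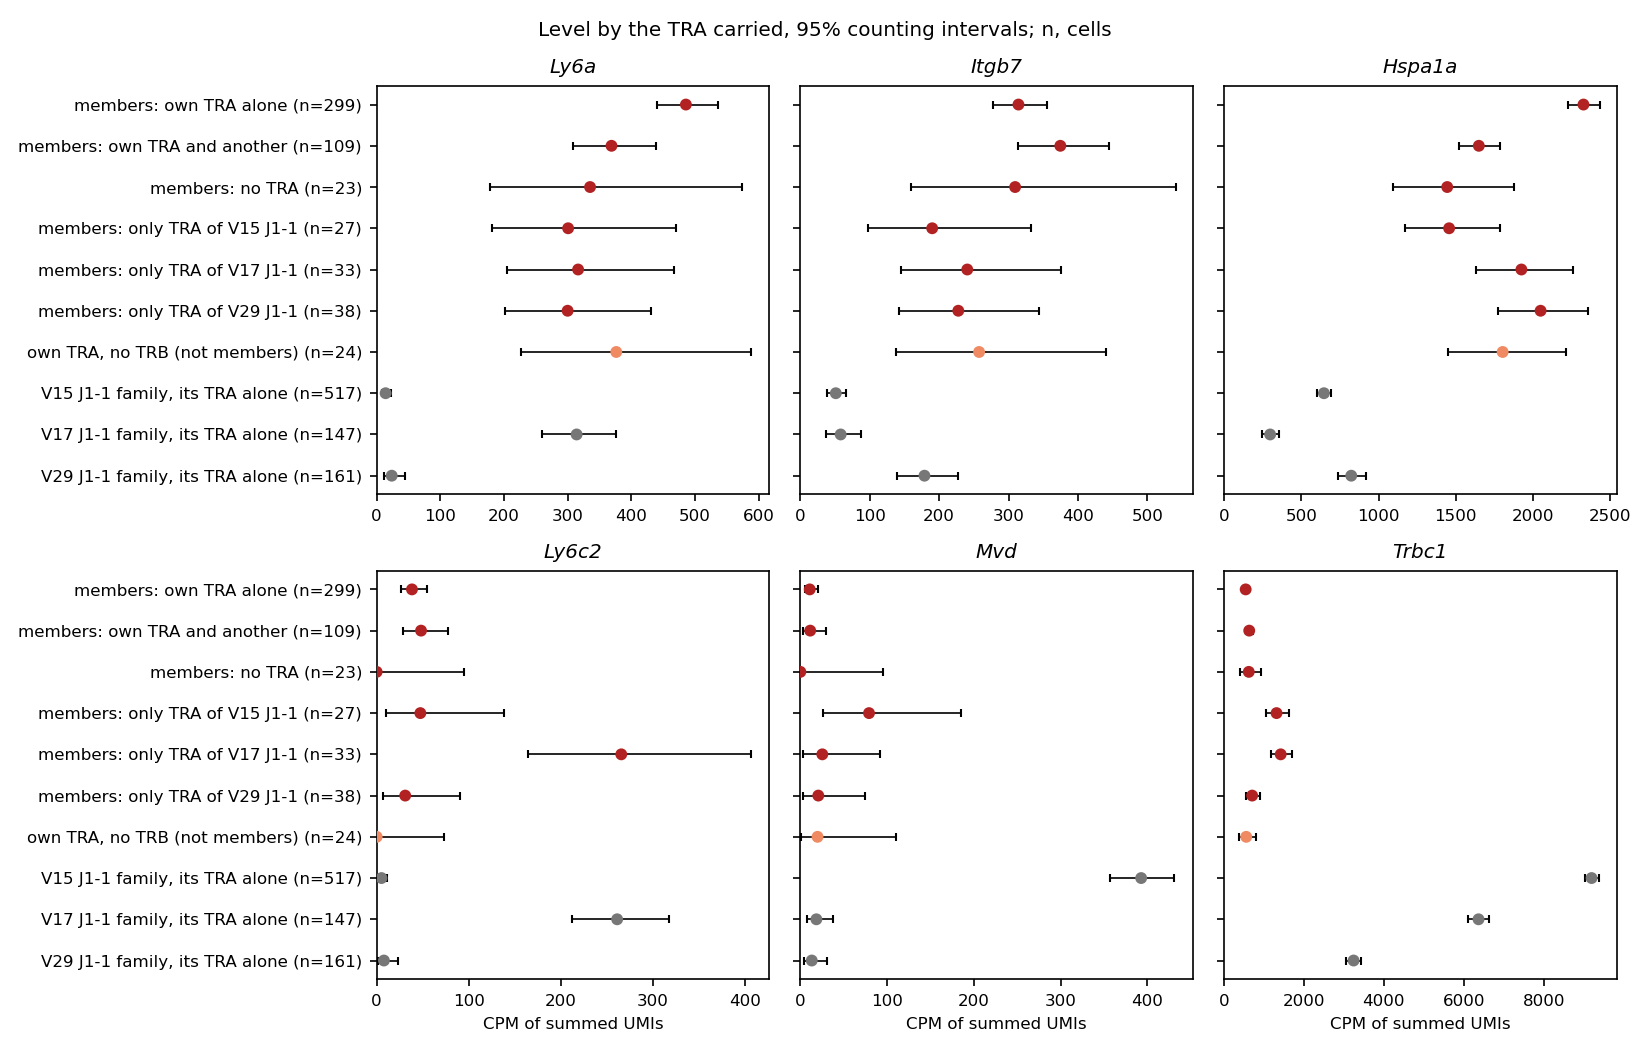
Levels in CPM with 95% counting intervals in members grouped by TRA (red; own TRA is the home TRA), in cells with the home TRA and no TRB (orange), and in cells of other families with their own TRA alone (grey). Ly6a stands at 486 CPM in members with the home TRA alone and at 14.1 CPM in the TRBV15 TRBJ1-1 family with its own TRA alone, and Ly6c2 is highest in members with only the TRA of TRBV17 TRBJ1-1 (266 CPM) and in that family (261 CPM).

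Levels also varied from cell to cell. The share of members with a UMI was set beside the share expected if all 600 cells had 1 common level at their own depths (Poisson counting). Of 34 genes examined, all 34 were below that share and in 33 the interval excluded it, housekeeping genes included: Gapdh was found in 81.0% against 86.2% expected. Itgb7 was among the most even, with 51.8% against 55.6% and a variance 1.19 times that of counting alone, and Gpm6b had 19.8% against 24.2% (1.48 times). Ly6a was less even, with 48.8% against 65.6% (2.30 times); 1 cell had 21 UMIs, and the 60 cells with most Ly6a held 46.6% of its UMIs. Hspa1a was found in 76.0% against 98.4% (6.46 times) and Jun in 69.0% against 88.2% (3.41 times). Ccl5 was the least even of the 34, with 26.5% against 46.5% (17.5 times) and 74.8% of its UMIs in 60 cells, and Ly6c2 was found in 31 members (5.17%).

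**Figure D4:**
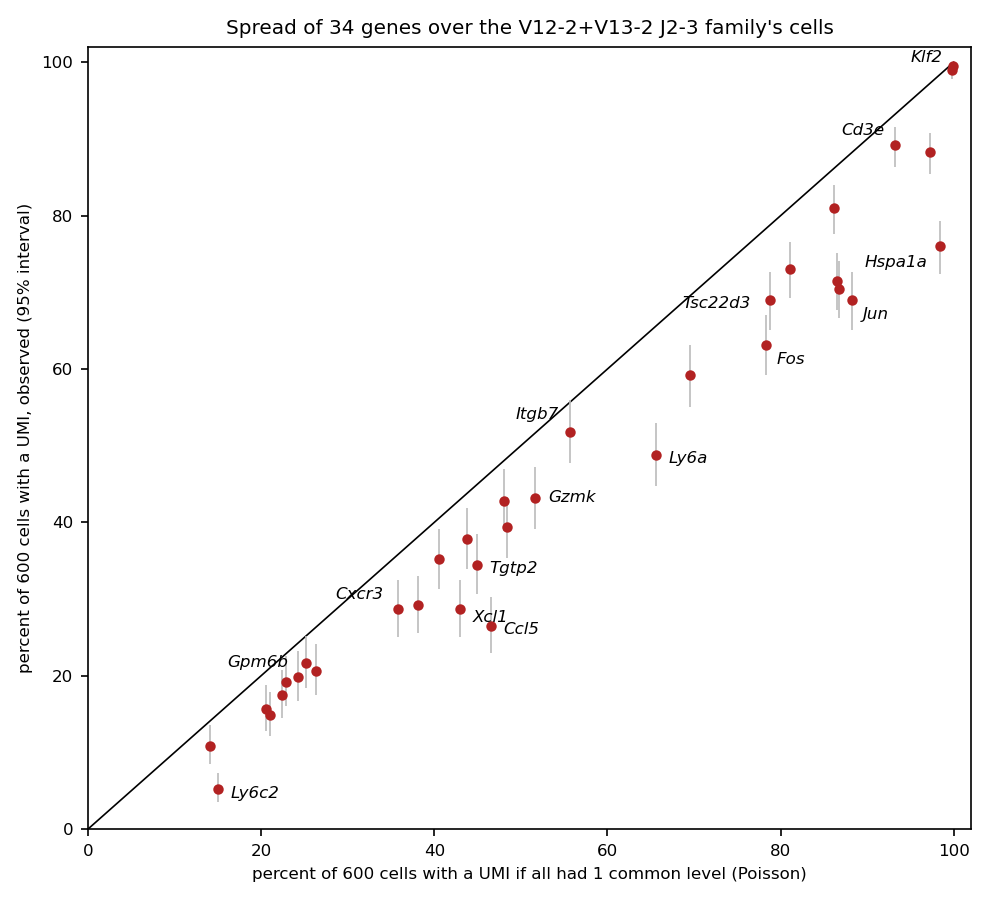
For 34 genes, the percent of the 600 members with at least 1 UMI (vertical axis, 95% interval) against the percent expected if every member had 1 common level (horizontal axis). All points lie below the diagonal; Itgb7 is close to it at 51.8% against 55.6%, and Hspa1a is far below at 76.0% against 98.4%.

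States inside the family were counted as cells with at least 2 markers of a list after every cell had been thinned to 1000 UMIs, which left 589 members and left out 11 shallower ones; 60 cells of the other families were also left out. Lymphoid homing markers (Ccr7, S1pr1 and Il7r among them) gave 114 cells, 19.4% (16.2 to 22.8), against 5.60% to 27.2% in the other families (median 12.2%); without thinning the shares were 49.5% against 13.8% to 46.7%. Interferon responding cells were 20, 3.40% (2.09 to 5.20), against 0% to 3.51% (median 1.06%); without thinning they were 9.67% against 0% to 7.46%. Receptor signalled cells, with genes such as Egr1 and Nr4a1 that follow TCR engagement, and with Xcl1, were 26, 4.41% (2.90 to 6.40), against 0% to 9.09%. Of the 7 genes of this list only Xcl1 was above the median of the other families, and its part in the share was not tested. Effector cells were 1, 0.170% (0.00430 to 0.942), against 0% to 6.67%, and cycling cells 1, against 0% to 1.30%; Mki67, the proliferation marker, had 4 UMIs in the family. Cells with 2 metallothionein genes were also 1.

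Markers of other cell types were counted in the same way. B cell markers gave 43 cells (7.30%), against 1.30% to 13.7% (median 8.77%), and with at least 3 markers 2 cells (0.340%) were left. CD4 or regulatory T cell markers gave 14 (2.38%), against 0% to 6.53%, from genes such as Ctla4 and Ikzf2 that CD8 cells also express. Myeloid markers gave 1 cell. NK cell, erythroid and stromal markers gave 0 of 589 cells, which allows a share of up to 0.509% if the limit is set at 3 cells, and of up to 0.624% by the exact interval. Some markers were absent from the count matrix, which held 9 of 10 for NK cells, 6 of 7 erythroid, 4 of 7 stromal and 9 of 13 myeloid. These shares cover only cells that show at least 2 of the markers present. Limited to cells with under 2 B cell markers in every family, 4 genes remained higher of the 6. Rcn3 and Itgb7 were not called, although their smallest ratios were 1.91 and 1.51, against 2.17 and 1.75 with all cells.

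**Figure D5:**
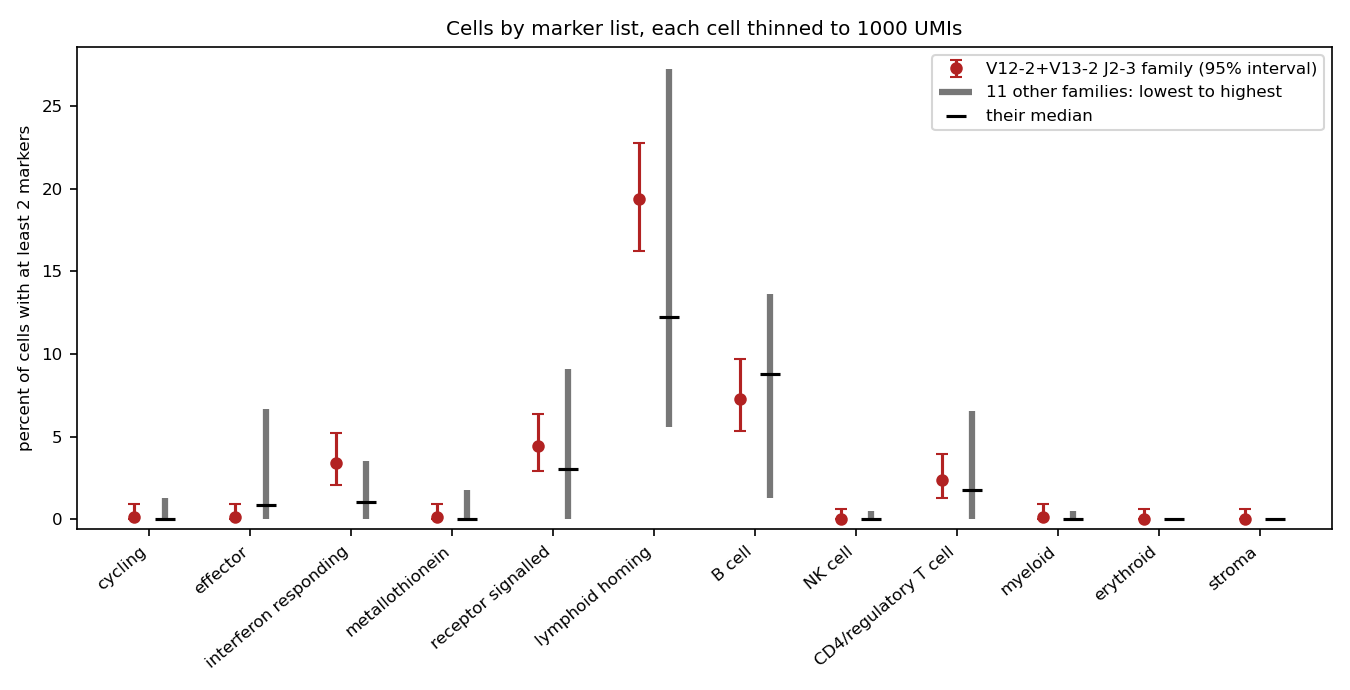
Percent of cells with at least 2 markers of each list after thinning to 1000 UMIs, in the TRBJ2-3 family (red, 95% interval) and in the 11 other families (grey bar from lowest to highest, black mark at their median). Lymphoid homing cells are the most frequent at 19.4%, within the other families' range of 5.60% to 27.2%.

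Clustering the 600 cells alone gave 2 sub-clusters of 357 and 243 cells that could not be named. Their leading genes included Usp40, Gm6093, Tfb1m and Gtf3c3 in the 357 cells, and Cd3eap, G2e3, 4632415L05Rik, Tmem219 and Tm9sf4 in the 243, each on 20 to 37 UMIs. The 357 cells were shallower, with a median of 2370 UMIs against 2953, and the home TRA alone was as frequent in both, at 49.0% and 51.0%. Itgb7 stood at 321 and 313 CPM, Tsc22d3 at 632 and 641 CPM, and Ly6a at 354 and 502 CPM, as a description. The division did not hold under other settings: another seed gave an adjusted Rand index of 0.308 or 0.226 with it (1 for identical divisions), and a wider choice of variable genes gave 0.0349. No stable state was therefore found inside the family by clustering.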

How the data were processed

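The data are 1 single-cell RNA library and 1 TCR library from the same sorted cells. The authors deposited a matrix of raw UMI counts per gene and barcode, not normalized, and a contig table that gives a count of UMIs for each assembled TCR contig. The clonotype table was used for clonotype names, and the percent it holds, deposited by the authors, was not used. Tools listed in the submitters' processing notes, whose roles and order are not stated there, are STAR 2.6.1a, featureCounts 2.0.1 and cutadapt 1.17, with GRCm38 as the build. The V(D)J assembler is not named in the labels or file headers. No barcode had under 500 UMIs.

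Counts were summed over the cells of a family and divided by the family's total to give CPM. Sums have exact Poisson 95% intervals, ratios exact conditional intervals and shares Clopper-Pearson intervals; PCR and chip effects are not covered. A family with 0 UMIs was set at 3 counts in median ratios. Genes with at least 100 UMIs over the 12 families entered, 6806 in all, without TCR segment and haemoglobin genes. Doublets were not called; barcodes with 2 TRB were left out by the rule, and cells with 2 TRA were kept. Cells were thinned to 1000 UMIs for states. Sub-clusters used scanpy 1.11.5 and igraph 0.11.9 (1000 variable genes, 20 components, 15 neighbours, Leiden resolution 0.5). Python 3.11.15, numpy 2.4.6, scipy 1.17.1, pandas 2.3.3 and matplotlib 3.10.9 were used, with edgeR 4.0.16 under R 4.3.3 for TMM factors only. The rule that calls genes higher or lower was tested on simulated counts with counting error only, without the spread from cell to cell described above. States, groups by TRA, lists and sub-clusters were not tested on simulated data.

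Genes named are those of the lists and the 5 markers, the called genes, the 3 nearest each edge of the call and 5 leading genes of each sub-cluster. The members and lists were chosen with earlier results of these data known. Promoter sequences are those of RefSeq on GRCm38.p6; Ly6a has no entry in that table. Some listed genes are not reported here.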

Additional observations from a re-analysis of the deposited data

How the results depend on the processing

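No paired analysis was possible because the RNA and TCR libraries are single and carry no replicate numbers. There were 16 alternatives for the counts of genes and 15 for single ratios, 2 of them (every family with its home TRA alone, and cells without the home TRA of another family) chosen after seeing the data. The 6 genes higher than in every other family became 11 with TMM scaling, 3 at a fold of 2, 1 with families of 30 or more cells and 17 with families of 100 or more cells. The 1 lower gene, Cd72, became 0 with TMM scaling, at a fold of 2, after thinning, with families of 30 or more cells, without cells holding a TRBV UMI of another V gene, with under 2 B cell markers and under both added alternatives; it became 12 with families of 100 or more cells and 2 with members holding the home TRA alone. The smallest ratio of Itgb7 turned to 0.847 with families of 30 or more cells. TMM scaling moved the share of genes above 1.5 among those past either bound to 64.1%, against 47.2%, and put the median ratio of all genes at 0.09 on the log2 scale. Of the ratios of single genes and the counts of lists, 221 were labelled unchanged, 18 moved and 1 turned. Unchanged meant inside the main counting interval for a ratio and within 1.5-fold of the main count for a list. A call could be lost under that label, as for Rcn3 after thinning. Of the gene counts, state shares, levels by TRA and numbers of sub-clusters, 29 were unchanged and 30 moved. The smallest ratio ranged from 1.04 to 4.85 for Gpm6b, 1.25 to 2.98 for Rcn3, 1.38 to 2.66 for Hspa1a and 1.23 to 2.84 for Cxcr3. It ranged from 0.847 to 1.86 for Itgb7, 1.166 to 1.85 for Tsc22d3, 1.46 to 1.90 for Hspa1b and 1.06 to 1.55 for Ly6a. The cause of these moves was not tested.

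State shares depended on the number of markers and on thinning. With 1 marker they were 4.41% cycling, 5.26% effector, 19.0% interferon responding, 1.53% metallothionein, 27.7% receptor signalled and 69.1% lymphoid homing, and with 3 markers 0%, 0%, 0.679%, none for metallothionein, 0.509% and 3.90%. Without thinning they were 9.67% interferon responding, 15.2% receptor signalled and 49.5% lymphoid homing. The 2 sub-clusters became 1 at a resolution of 0.3 and 10 at 1.0. With 1 library no spread between mice or libraries is known, and the smallest ratios of Gpm6b, Hspa1b and Cxcr3 are set by families of under 100 cells.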
